A study of Mus musculus with 8 samples.

Results

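The genes described here are 10 mouse genes of antigen presentation on major histocompatibility complex (MHC) molecules: H2-K1, H2-D1, B2m, Tap1, Tapbp and Psmb8 of class I, and H2-Aa, H2-Ab1, Cd74 and Ciita of class II. They were taken by name, with no threshold on a value, but earlier results of these data were known when they were chosen. Each probe was assigned through the RefSeq accession that the array files give for it. All 10 genes were on the array, through 17 probes, among 45616 genes or transcripts in all. Of the 10, 8 were well above background on all 8 arrays and were tested, and H2-Aa and Ciita were not tested because no group had signal on both of its arrays.

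The cells were J774.1, a macrophage-like line established from a BALB/c mouse tumour. A line is a single transformed population, so the groups hold no animals. Transcripts were read on 8 one-colour Agilent arrays, 2 biological replicates in each of 4 groups: control, the flavonols isorhamnetin and tamarixetin (10 µM each), and Torin1 (1 µM), each compound given for 6 h. The sources used here do not say how control cells were handled. Both flavonols derive from quercetin by methylation of a hydroxyl, and the methylated hydroxyls neighbour each other on the same ring. Torin1 is an ATP-competitive inhibitor of the kinase mTOR, in both of its complexes.

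MHC class I molecules pair a heavy chain (H2-K1, H2-D1) with beta-2 microglobulin (B2m) and show peptides cut by the proteasome to CD8 T cells. Psmb8 is a catalytic subunit of the immunoproteasome, Tap1 is a subunit of the transporter that carries peptides into the endoplasmic reticulum, and tapasin (Tapbp) bridges that transporter to empty class I molecules. Class II molecules pair an alpha and a beta chain (H2-Aa, H2-Ab1), are guarded by the invariant chain Cd74, and show peptides from endocytosed proteins to CD4 T cells. Ciita is the coactivator that sets class II transcription, and interferon-gamma is its classical inducer in macrophages.

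The 75th percentile of signal lay between 498 and 626 on the 8 arrays, and 43.9% to 54.1% of probes were well above background. Of 9 macrophage markers, 8 were well above background on every array, Mertk being the exception. None of 5 B cell and none of 6 fibroblast and epithelial markers reached that on every array, while 1 of 7 dendritic cell markers (Siglech) and 3 of 5 T cell markers (Cd3e, Cd4, Lck) did. The arrays of control and isorhamnetin lay in 1 row of the slide and those of tamarixetin and Torin1 in the other, so slide row and these pairs of groups cannot be told apart. Signals more than 8-fold above those of all 7 other arrays were seen for 26 to 57 of 56282 probes on the control and isorhamnetin arrays and for 184 to 356 on the tamarixetin and Torin1 arrays.

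The promoters of these genes are known for shared short elements, so the 250 bases before the annotated start are shown for both heavy chains, B2m, H2-Aa, Tap1 and Psmb8. RefSeq sequences (GRCm38.p6) were matched for 7 of the 10 genes, and H2-Ab1, Cd74 and Ciita were not matched. These are reference sequences, and whether J774.1 cells, of BALB/c origin, carry the same letters was not tested. Capitals mark matches, on either strand, to an interferon-stimulated element (GAAA, 2 bases of any kind, GAAA), an interferon-gamma-activated site (TTCNNNGAA), an NF-kB-type site (GGGNNTTCC), the cAMP response element core TGACG, or the Y box. The Y box CCAAT reads as ATTGG on the opposite strand. H2-K1 (chr17:34000348-34000597, minus strand, 1 of 2 listed starts), H2-D1 (chr17:35262844-35263093, plus strand) and B2m (chr2:122147437-122147686, plus strand) give the 2 chains of the class I molecule, and H2-Aa (chr17:34287824-34288073, minus strand) a class II chain. Tap1 shares its 225-base upstream interval with Psmb9, transcribed the other way (chr17:34187331-34187555, written towards Tap1), and Psmb8 (chr17:34197945-34198194, plus strand) had the largest Torin1 difference of the 8 genes tested.
H2-K1: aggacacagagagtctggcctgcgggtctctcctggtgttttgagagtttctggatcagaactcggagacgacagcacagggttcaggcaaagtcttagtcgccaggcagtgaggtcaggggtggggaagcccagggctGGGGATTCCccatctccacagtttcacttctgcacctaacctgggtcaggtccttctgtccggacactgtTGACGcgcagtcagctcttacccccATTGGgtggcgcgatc
H2-D1: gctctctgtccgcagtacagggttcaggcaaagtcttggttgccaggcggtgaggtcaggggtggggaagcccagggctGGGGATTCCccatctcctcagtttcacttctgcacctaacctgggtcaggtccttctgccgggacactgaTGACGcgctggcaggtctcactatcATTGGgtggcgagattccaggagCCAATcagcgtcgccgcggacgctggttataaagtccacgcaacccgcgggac
B2m: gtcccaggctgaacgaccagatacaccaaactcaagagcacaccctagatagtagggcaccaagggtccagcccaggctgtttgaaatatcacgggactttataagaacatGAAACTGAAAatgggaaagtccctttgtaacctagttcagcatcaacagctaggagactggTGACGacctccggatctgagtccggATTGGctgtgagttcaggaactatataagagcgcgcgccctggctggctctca
H2-Aa: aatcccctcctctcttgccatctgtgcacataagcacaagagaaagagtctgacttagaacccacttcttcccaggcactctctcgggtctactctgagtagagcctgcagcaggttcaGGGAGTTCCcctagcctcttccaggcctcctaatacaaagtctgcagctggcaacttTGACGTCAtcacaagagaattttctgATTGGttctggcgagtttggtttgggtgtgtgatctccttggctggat
Psmb9-Tap1: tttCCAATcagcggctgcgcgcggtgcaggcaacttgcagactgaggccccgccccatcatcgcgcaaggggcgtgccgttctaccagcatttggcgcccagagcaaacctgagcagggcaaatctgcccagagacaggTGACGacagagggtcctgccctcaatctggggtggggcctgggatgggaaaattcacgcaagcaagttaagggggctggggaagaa
Psmb8: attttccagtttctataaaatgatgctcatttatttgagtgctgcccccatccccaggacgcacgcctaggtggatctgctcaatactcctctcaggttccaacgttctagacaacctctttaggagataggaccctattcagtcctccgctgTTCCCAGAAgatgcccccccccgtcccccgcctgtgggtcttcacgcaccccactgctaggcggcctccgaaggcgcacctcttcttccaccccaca

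Both heavy chain windows, the B2m window and the H2-Aa window held TGACG followed by ATTGG on the same strand. The distance from the first base of TGACG to the first base of ATTGG was 25 bases in H2-K1, H2-D1 and B2m and 26 bases in H2-Aa. Over all 32851 listed mouse starts, 0.216% of windows held this pair 24 to 27 bases apart, a spacing range chosen after reading these windows. The NF-kB-type match lay at -111 in H2-K1, -171 in H2-D1 and -131 in H2-Aa, counted from the start to its first base, and 4.98% of all windows held one. Among these windows only B2m matched the interferon-stimulated string as written above, at -139 (2.98% of all windows). Only Psmb8 matched the string of the interferon-gamma-activated site, at -97 (7.02% of all windows). Looser forms of these elements were not searched for, so a window without a match may still hold one. TGACG occurred in 17.8% and CCAAT in 33.8% of all windows. In H2-Aa, TGACG was matched on both strands in overlapping positions. The Tapbp window held 2 Y box matches, and the E-box CACGTG (6.02% of all windows) was in none of the windows searched for these genes. These matches are letters in a window and were not measured as bound sites.

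**Figure D1:**
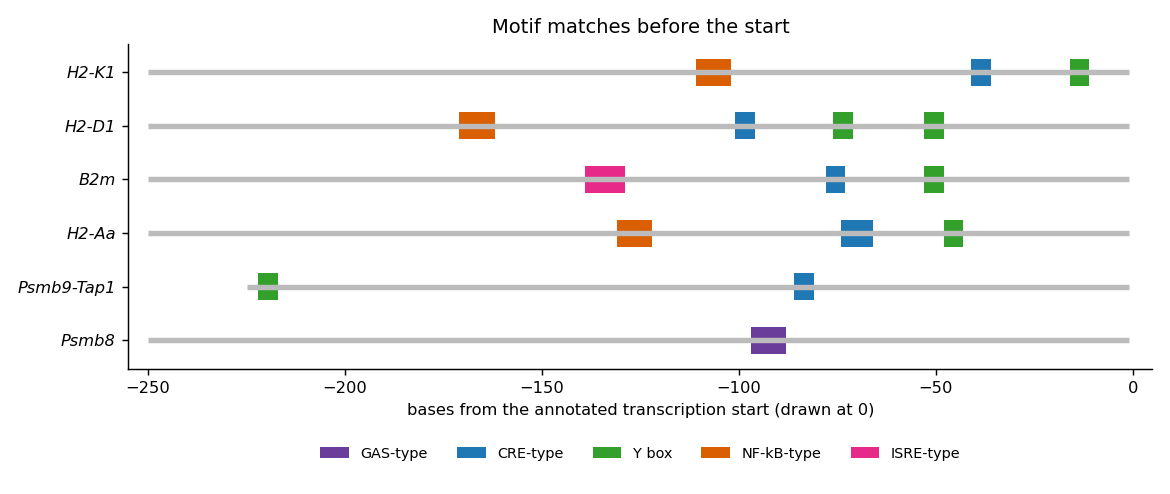
Motif matches in the window before the annotated transcription start of H2-K1, H2-D1, B2m, H2-Aa, Psmb9-Tap1 and Psmb8. The horizontal axis gives the position in bases before the start, and each motif has a colour. The Tapbp window is not drawn. In H2-K1, H2-D1, B2m and H2-Aa a TGACG match is followed by a Y box match 25 or 26 bases downstream.

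Levels are given as log2 signal minus the array's 75th percentile, so that 0 is the level of that percentile. A difference between groups is a log2 difference on this scale, with its SE from a limma fit over all 8 arrays, and a gene was called at an adjusted p below 0.05 (Benjamini-Hochberg over 21528 genes). Most of these genes fell under Torin1. Of the 8 genes tested, 6 fell with Torin1 against control and 0 rose, where 27.4% of all 21528 genes fell and 21.3% rose. The count was 3 with quantile normalization and 4 to 6 with 1 array left out. The median difference of the 8 was -0.28, against -0.06 over all genes. The list as a whole was not tested, and it was not chosen blind to these data.

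The H2-K1 heavy chain had control levels of 4.60 and 4.56, isorhamnetin levels of 4.53 and 4.54, tamarixetin levels of 4.64 and 4.51, and Torin1 levels of 4.21 and 4.26. Both Torin1 arrays lay below the other 6. The difference between Torin1 and control was -0.34 ± 0.06 (SE, n = 2 per group, adjusted p = 0.00698 by limma), a level 0.787 times that of control. The second H2-K1 probe gave -0.13 for the same difference, so the probes disagreed in size, and after quantile normalization the call was lost (adjusted p = 0.0782). H2-D1, the second classical heavy chain, had levels of 4.28 and 4.15 in control, 4.05 and 4.11 under isorhamnetin, 4.11 and 3.99 under tamarixetin, and 4.02 and 4.12 under Torin1. All treated arrays lay below both controls, by less than the controls differed from each other for the nearest array, and the Torin1 difference of -0.15 ± 0.08 (SE, n = 2) was not called (adjusted p = 0.161, limma). With median scaling it was -0.38 and passed (adjusted p = 0.0395). H2 genes are close, polymorphic relatives, and which of them each probe binds was not tested.

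B2m is the invariant partner of the class I heavy chains. Its levels were 6.51 and 6.59 in control, 6.44 and 6.33 under isorhamnetin, 6.51 and 6.46 under tamarixetin, and 6.37 and 6.30 under Torin1. The Torin1 arrays lay below both controls and overlapped the isorhamnetin arrays. B2m fell by 0.22 ± 0.06 (SE, n = 2, adjusted p = 0.0378, limma). This call was lost in 11 of 18 other settings, among them quantile normalization (adjusted p = 0.0686). It was lost without either control, tamarixetin or Torin1 array, with adjusted p up to 0.161 when 1 array was left out.

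Psmb8, the immunoproteasome subunit, had the largest Torin1 difference of the 8 genes tested. Its levels were 3.49 and 3.51 in control, 3.40 and 3.23 under isorhamnetin, 3.38 and 3.39 under tamarixetin, and 2.63 and 2.63 under Torin1. Both Torin1 arrays lay far below the other 6, which lay between 3.23 and 3.51. Psmb8 fell by 0.87 ± 0.07 (SE, n = 2, 95% interval -1.04 to -0.70, adjusted p = 0.000468, limma), to 0.549 times the control level. It was called in all 18 other settings. The 2 other inducible catalytic subunits, which replace constitutive ones when the immunoproteasome assembles, fell as well. Psmb9 had levels of 1.64 and 1.57 in control and 0.82 and 0.80 with Torin1, a difference of -0.79 ± 0.05 (adjusted p = 0.00031, limma). Psmb10 had levels of 4.95 and 4.98 in control and 4.30 and 4.27 with Torin1, a difference of -0.68 ± 0.06 (adjusted p = 0.000789, limma). The isorhamnetin and tamarixetin arrays of Psmb9 lay between 1.47 and 1.56 and those of Psmb10 between 4.83 and 5.09, so that no group overlapped Torin1. The constitutive counterparts, looked up after these values were seen, gave -0.50 ± 0.06 for Psmb5 (adjusted p = 0.00139), -0.22 for Psmb7 (adjusted p = 0.017) and -0.07 for Psmb6 (adjusted p = 0.505, limma). Whether inducible and constitutive subunits differed from each other was not tested.

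Tap1 had levels of -0.13 and -0.09 in control, -0.31 and -0.29 under isorhamnetin, -0.22 and -0.36 under tamarixetin, and -0.49 and -0.43 under Torin1. The Torin1 arrays were the lowest and the controls the highest. Tap1 fell by 0.35 ± 0.06 with Torin1 (SE, n = 2, adjusted p = 0.00691, limma), and its dimmer second probe gave -0.58. Tap2, the other subunit of the transporter, gave -0.27 and missed the threshold (adjusted p = 0.0618), which it passed with median scaling (adjusted p = 0.0234). Tapbp had levels of 3.57 and 3.63 in control, 3.44 and 3.46 under isorhamnetin, 3.42 and 3.40 under tamarixetin, and 3.40 and 3.42 under Torin1. On this brighter Tapbp probe all 6 treated arrays lay below both controls and close together. Tapbp fell by 0.18 ± 0.05 with Torin1 (SE, n = 2, adjusted p = 0.0263, limma), and its second probe gave -0.16. Against control that second probe gave 0.01 for isorhamnetin and -0.04 for tamarixetin. The Tapbp call was lost in 8 of 18 other settings, among them quantile normalization (adjusted p = 0.165). Leaving out either control or either Torin1 array also ended it, with adjusted p up to 0.119.

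**Figure D2:**
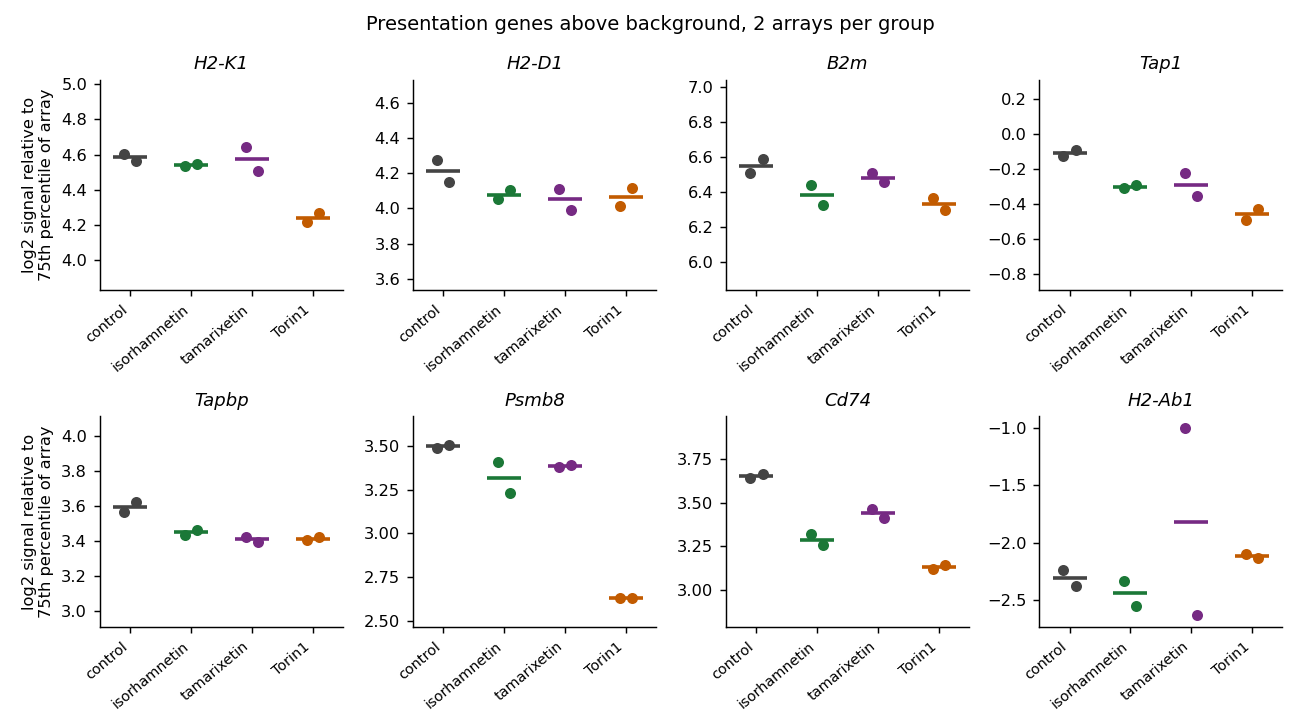
Level of each of the 8 genes above background (log2 signal minus the array's 75th percentile, vertical axes with ranges of their own that do not start at 0) in control, isorhamnetin, tamarixetin and Torin1, with a point for each array and a line at the group mean. For Psmb8 both Torin1 arrays, at 2.63, lie below the other 6, and for H2-Ab1 the first tamarixetin array stands above the others.

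Cd74 was well above background on every array. Its levels were 3.64 and 3.66 in control, 3.32 and 3.26 under isorhamnetin, 3.46 and 3.41 under tamarixetin, and 3.12 and 3.14 under Torin1. No 2 groups overlapped, and the order from control through tamarixetin and isorhamnetin to Torin1 held for every array. Cd74 fell by 0.52 ± 0.05 with Torin1 (SE, n = 2, adjusted p = 0.000946, limma) and was called in all 18 other settings. With isorhamnetin the difference was -0.36 ± 0.05 (95% interval -0.49 to -0.23), which missed the threshold at an adjusted p of 0.0629 (limma). It passed when only probes above background on every array were kept (adjusted p = 0.0278) and with a trended, robust prior (adjusted p = 0.0072). With tamarixetin the difference was -0.21 (adjusted p = 0.215).

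The class II chains differed in detection. H2-Aa, the alpha chain, had 1 probe with signals of 3.17 to 9.72, not well above background on any array. H2-Ab1, the beta chain, had 4 probes, of which 2 were well above background on all 8 arrays. The brighter of these gave signals of 121 and 96.1 in control, 106 and 102 under isorhamnetin, 312 and 90.0 under tamarixetin, and 130.2 and 124 under Torin1. Only the first tamarixetin array stood apart. The next probe of H2-Ab1 gave 94.98 to 114 on all 8 arrays, the first tamarixetin array included. H2-Ab1 was not called in any comparison, and its Torin1 difference was 0.19 ± 0.50 (SE, n = 2, adjusted p = 0.778, limma). Its tamarixetin difference of 0.49 (adjusted p = 0.683) became -0.32 without the first tamarixetin array and 1.31 (adjusted p = 0.0312) without the second.

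Ciita, the class II coactivator, was not well above background on either probe in control, isorhamnetin or Torin1 cells. The first probe gave signals of 5.205 and 4.72 in control, 9.73 and 7.34 under isorhamnetin, and 7.98 and 16.9 under Torin1. With tamarixetin it gave 11.1 on the first array and 448 on the second. The second Ciita probe gave 3.56 to 10.6 over all 8 arrays, the second tamarixetin array included.

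**Figure D3:**
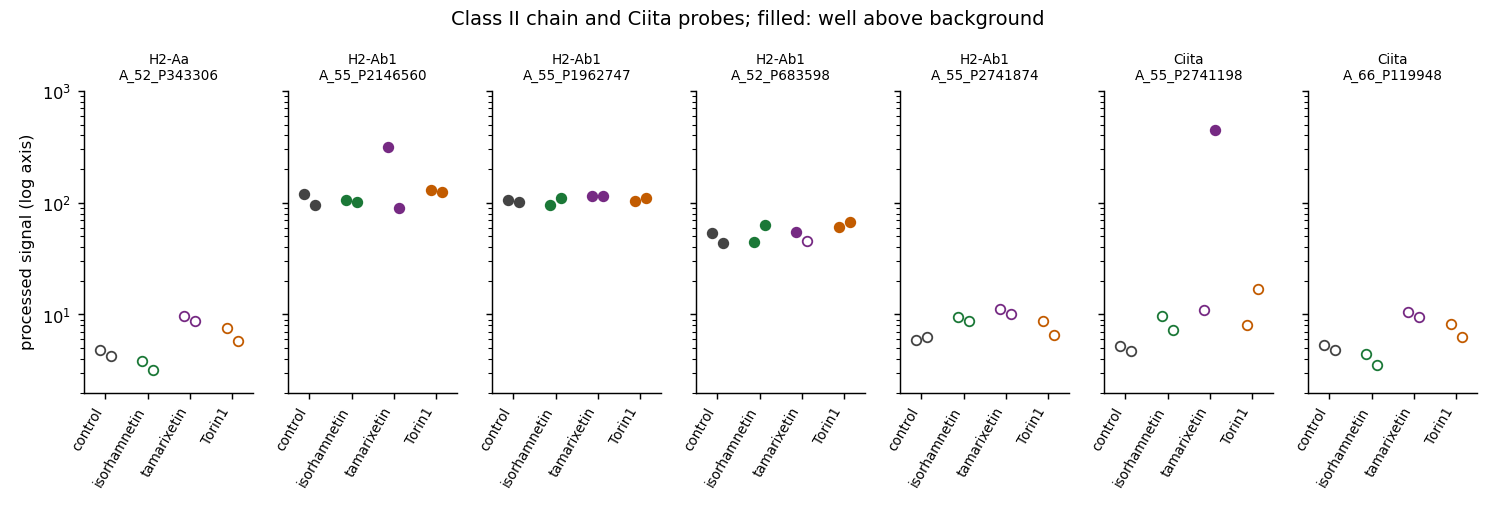
Processed signal (log axis) of each probe of H2-Aa, H2-Ab1 and Ciita on the 8 arrays by group, with filled points for signals well above background. The H2-Aa and second Ciita probes stay below 11 on all arrays, while 1 H2-Ab1 probe and 1 Ciita probe each have a single high tamarixetin array that the other probes of the gene do not show.

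The relative scale matters for the small Torin1 differences. Scaling each array by its median instead of its 75th percentile moved the median difference of all genes between Torin1 and control from -0.06 to -0.29. Both scalings shift all genes of an array alike, so a difference relative to the median of all genes is the same under them by construction. Only the values after quantile normalization can depart from it. Relative to that median, Psmb8 lay at -0.81 with either scaling and at -0.69 after quantile normalization, and Cd74 at -0.46, -0.46 and -0.36. Tap1 lay at -0.29, -0.29 and -0.30 in that order. H2-K1 lay at -0.29 with either scaling and at -0.09 after quantile normalization, while H2-D1 moved from -0.09 to 0.09, a change of sign. In these bulk samples, less RNA per cell and fewer cells that hold it cannot be told apart. The summed level of the T cell markers was 4.55 and 4.94 times the 75th percentile in control, 4.23 and 3.77 under isorhamnetin, 3.81 and 4.19 under tamarixetin, and 2.92 and 3.21 under Torin1. Cd4 (-0.75) and Lck (-0.56) fell with Torin1 and Cd3e (-0.46, adjusted p = 0.142) did not pass the test, while Cd8a and Cd3d were not above background on every array. Of the macrophage markers, Adgre1 (1.47), Cd68 (0.39) and Cd14 (0.35) rose and Fcgr1 (-2.19) fell, while their summed level was 520 and 529 in control and 558 and 544 under Torin1. The part of these markers in the results was not tested.

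Isorhamnetin and tamarixetin were compared with control and with each other. These comparisons and that of Torin1 share the control arrays. With isorhamnetin 0 of 8 genes were called against control by limma, where 0.562% of all genes were called. All 8 differences were below 0, with a median of -0.16 against -0.01 over all genes, and 5 of the 8 had an unadjusted p below 0.05, as had 16.1% of all genes. With tamarixetin 0 of 8 were called, where 0.0743% of all genes were, and 7 differences were below 0. The median was -0.14 against -0.03 over all genes, and 3 had an unadjusted p below 0.05, as had 13.9% of all genes. The isorhamnetin differences of the class I genes were -0.05 for H2-K1, -0.14 for H2-D1, -0.16 for B2m, -0.19 for Tap1, -0.15 for Tapbp and -0.18 for Psmb8. The tamarixetin differences were -0.01, -0.16, -0.07, -0.18, -0.19 and -0.11 in the same order.

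The pair of isomers was matched in dose and time. Of the 8 genes, 0 were called between them, where 0.804% of all genes were called, and 1 had an unadjusted p below 0.05, as had 12.8% of all genes. That gene was Cd74, lower with isorhamnetin than with tamarixetin by 0.15 on the log2 scale (95% interval -0.28 to -0.02, adjusted p = 0.321, limma). The intervals of the other differences, isorhamnetin minus tamarixetin, ran from -0.19 to 0.12 for H2-K1, -0.16 to 0.21 for H2-D1, -0.26 to 0.06 for B2m and -0.17 to 0.15 for Tap1. They ran from -0.08 to 0.16 for Tapbp, -0.24 to 0.10 for Psmb8 and -1.86 to 0.61 for H2-Ab1. Differences within these intervals remain compatible with the data from 2 arrays per group. The intervals are not limits of detection.

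Each flavonol was also set against Torin1, at a different dose. H2-K1 and Psmb8 were higher with isorhamnetin than with Torin1 (2 of 8, where 23.6% of all genes were higher). H2-K1, Psmb8 and Cd74 were higher with tamarixetin than with Torin1 (3 of 8, where 22.8% of all genes were higher). The H2-K1 call against isorhamnetin was lost without either isorhamnetin array or the first Torin1 array (adjusted p = 0.0559, 0.0604 and 0.0723), and that against tamarixetin without the first Torin1 array (adjusted p = 0.0501). Quantile normalization also ended them, at 0.15 for isorhamnetin (adjusted p = 0.111) and 0.17 for tamarixetin (adjusted p = 0.0751). So did the mean of the probes, at 0.17 (adjusted p = 0.108) and 0.16 (adjusted p = 0.131). With no filter the call against tamarixetin was lost for H2-K1 (adjusted p = 0.0626) and for Cd74 (adjusted p = 0.0592). The second H2-K1 probe gave 0.04 for isorhamnetin and -0.02 for tamarixetin against Torin1. The Cd74 difference from isorhamnetin passed with median scaling (adjusted p = 0.0277). The difference in Psmb8 was 0.69 (adjusted p = 0.00111) for isorhamnetin and 0.75 (adjusted p = 0.000776, limma) for tamarixetin. Cd74 differed from Torin1 by 0.16 with isorhamnetin (adjusted p = 0.0569) and by 0.31 with tamarixetin (adjusted p = 0.00581, limma). The smallest p that an exact test of 2 arrays against 2 can give is 0.333. The calls here rest on the limma model, which pools the spread over the groups and shares it across genes. How far they depend on the sharing across genes was not tested.

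**Figure D4:**
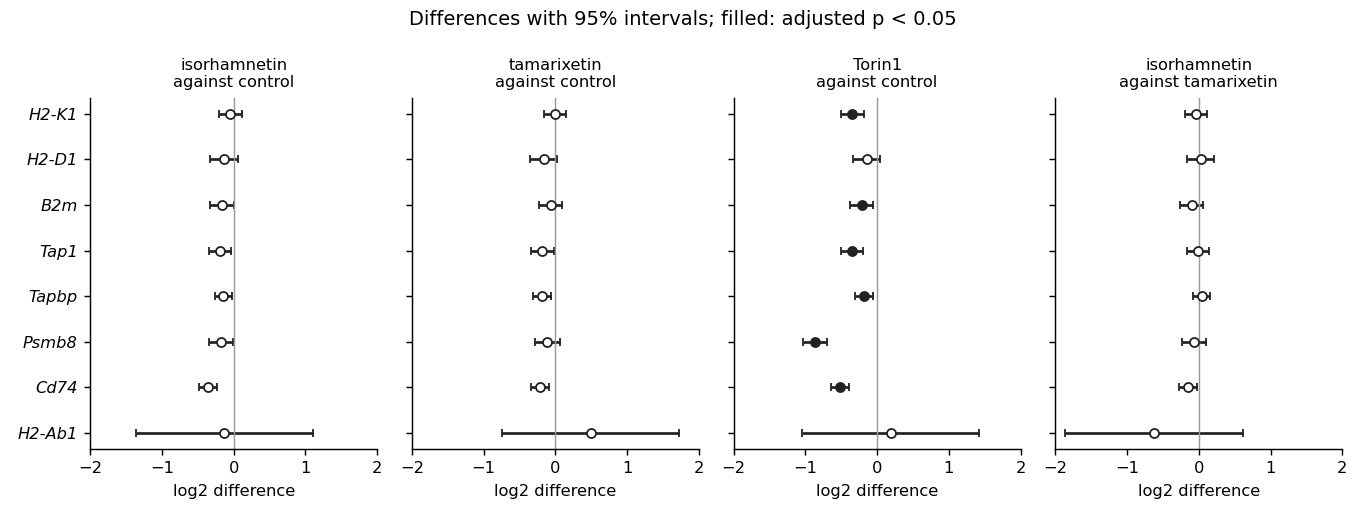
Log2 difference with its 95% interval for each of the 8 genes, with filled points at an adjusted p below 0.05. The comparisons drawn are each compound against control and isorhamnetin against tamarixetin. Those of the flavonols with Torin1 are not drawn. Against control, 6 genes are filled and to the left of 0 for Torin1 and none are filled for isorhamnetin or tamarixetin.

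Of 67 other genes of presentation and its regulation, 61 were on the array and 56 were tested. With Torin1 11 rose, 20 fell and 25 were not called, with a median of -0.10, where 21.3% of all genes rose and 27.4% fell. These shares are the background for each group of genes that follows, and these lists too were chosen with earlier results of these data known. In the peptide supply and loading group, 6 of 12 genes fell and 0 rose, with a median of -0.34. Besides Psmb9 and Psmb10 these were Psme1, a subunit of the interferon-inducible proteasome activator (-0.41), and the loading chaperones Calr (-0.78) and Pdia3 (-0.46). The count also holds the class I-like Hfe (-0.58), which neither supplies nor loads peptide. Among 12 further heavy chains, H2-T24 (-0.76), H2-T3 (-0.63) and H2-Q7 (-0.22) fell, and H2-Q4 (0.50) and Mr1, which presents microbial vitamin metabolites (0.58), rose. The calls of H2-Q4 and Mr1 were lost with median scaling (adjusted p = 0.101 and 0.0574). Those of H2-Q4, Mr1 and H2-T3 were also lost without either control or either Torin1 array, with adjusted p of 0.0694 to 0.148, and that of H2-T3 without either isorhamnetin array (adjusted p = 0.0535). That of H2-Q7 was lost without either control array or the first Torin1 array, with adjusted p of 0.0511 to 0.09.

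In the class II group, 5 of 12 genes rose and 4 fell with Torin1, where 21.3% of all genes rose and 27.4% fell. Of the 4, H2-DMb1 and H2-Oa passed the filter on background only through the control and isorhamnetin arrays. The filter thus favoured a fall, and their calls are not counted as support for one. They are also in the count of falling genes over all these lists. H2-Eb1, the beta chain of the other class II molecule, had levels of -0.38 and -0.32 in control and 1.31 and 1.32 with Torin1, a rise of 1.67 ± 0.06 (SE, n = 2, adjusted p = 6.34e-05, limma). Its isorhamnetin and tamarixetin arrays lay between -0.49 and -0.35. H2-DMa, a subunit of the exchange factor that loads peptide onto class II, fell from -1.21 and -1.31 to -2.47 and -2.71, a difference of -1.33 ± 0.10 (adjusted p = 0.000362, limma). For its partner H2-DMb1 the bound on the fall was 1.43-fold. For H2-Oa, a subunit of the DM inhibitor, it was 1.16-fold. Both are given as bounds, since neither was well above background under Torin1. The bound sets the mean of the brighter group against the dimmest signal well above background on each array of the dimmer group. It makes no allowance for the spread between arrays, so neither value is an established minimum. With normexp background correction the H2-Oa difference was -0.22 and not called (adjusted p = 0.176, limma). Cd83, a membrane protein known to keep class II on the cell surface, had levels of 0.46 and 0.34 in control and 4.46 and 4.52 under Torin1. Its rise of 4.09 ± 0.08 (adjusted p = 1.29e-05, limma) was the largest of these genes. The lysosomal proteases Lgmn (1.42), Ctss (0.63) and Ctsl (0.30) rose, and the lysosomal thiol reductase Ifi30 (-0.24) fell. Ctsl was at 0.07 with median scaling (adjusted p = 0.629). The call of H2-Oa was lost without the first control or first Torin1 array (adjusted p = 0.0587 and 0.0555). That of Ifi30 was lost without the first control or either Torin1 array (adjusted p = 0.054 to 0.0838), and with quantile normalization it lay at -0.06 (adjusted p = 0.397). Ctss trims the invariant chain Cd74, whose transcript fell in the same cells.

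Of 20 regulators, 4 rose and 7 fell under Torin1, near the 21.3% and 27.4% of all genes. Nlrc5, the class I coactivator, rose from -0.96 and -0.70 in control to 0.00 and -0.26, a difference of 0.70 ± 0.14 (SE, n = 2, adjusted p = 0.0102, limma), while 5 class I genes named above fell. The interferon receptor chains Ifnar1 (0.57) and Ifnar2 (0.62) rose, as did Ifngr2 (0.21), which lay at -0.03 with median scaling. Jak2 (-0.50), a kinase of the interferon-gamma receptor, and the receptor chain Ifngr1 (-0.23) fell. Averaged over probes, Jak2 was -0.25 (adjusted p = 0.0893) and Ifnar1 0.29 (adjusted p = 0.134), which ended both calls. Rfxap (-0.65) and Nfyc (-0.37), subunits of factors that bind the X and Y boxes of class II promoters, fell, as did the macrophage factor Spi1 (-0.37) and the histone methyltransferase Ezh2 (-0.47). Irf1, an interferon-induced activator of class I genes, gave -0.18 and was not called (adjusted p = 0.0802), but passed with median scaling (adjusted p = 0.027). The Nlrc5 call was lost without the first control or first Torin1 array (adjusted p = 0.0514 and 0.0504). Those of Ifngr1, Ifngr2, Nfyc and Spi1 were lost in at least 3 of the 4 fits without a control or Torin1 array, with adjusted p up to 0.164.

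**Figure D5:**
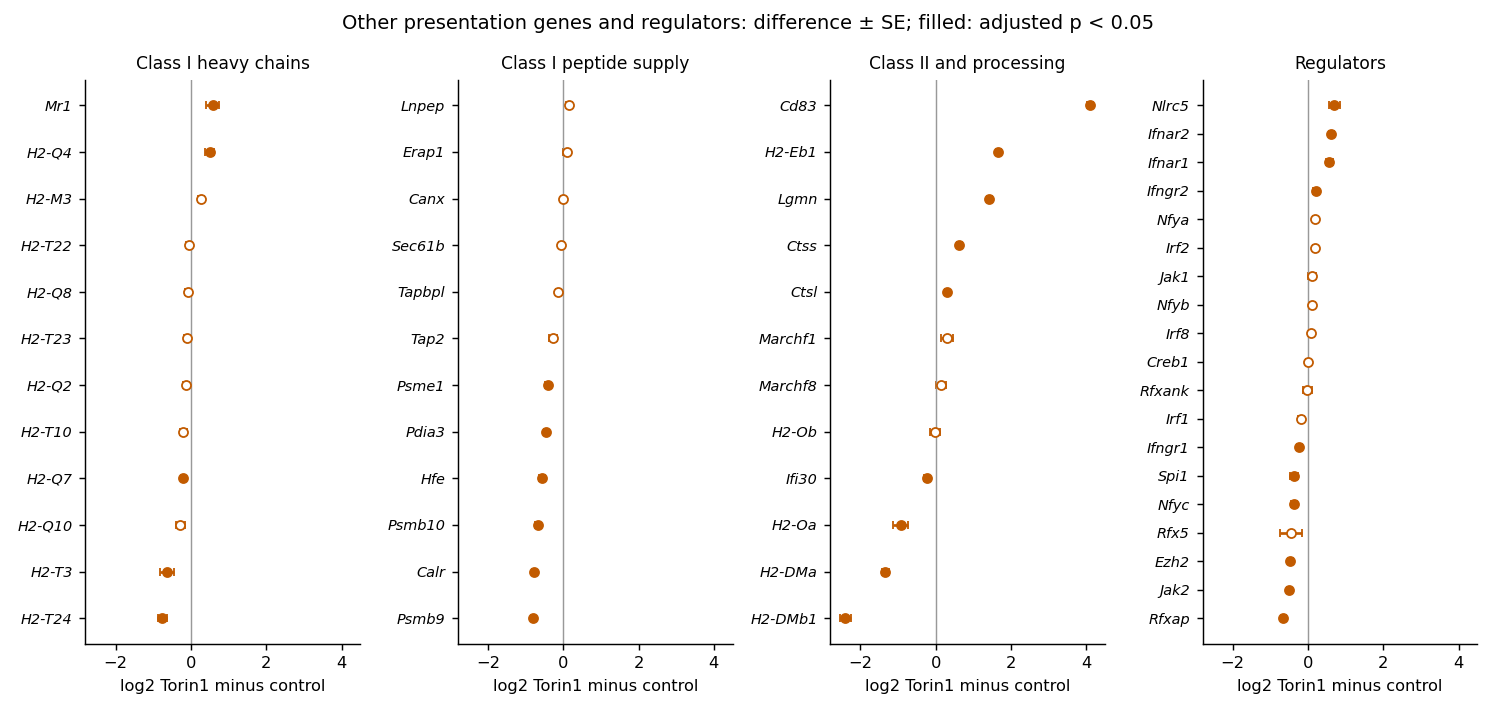
Log2 difference between Torin1 and control, with its SE, for the other presentation genes and regulators reported here in 4 groups, with filled points at an adjusted p below 0.05. Cd83 (4.09), H2-Eb1 (1.67) and Lgmn (1.42) lie farthest to the right, and the called genes of the peptide supply group, which holds Hfe, all lie to the left of 0.

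With isorhamnetin and with tamarixetin, 0 of these 56 genes were called against control by limma, and 0 were called between the isomers. At an unadjusted p below 0.05 there were 9, 6 and 2 genes in the 3 comparisons, where 16.1%, 13.9% and 12.8% of all genes were below it. Irf1 differed from control by -0.29 under isorhamnetin (adjusted p = 0.156) and by -0.17 under tamarixetin (adjusted p = 0.379). Psmb9 gave -0.08 and -0.13, Tap2 -0.10 and -0.13, Nlrc5 -0.16 and -0.02, H2-DMa -0.14 and -0.15, H2-Eb1 -0.05 and -0.09, and Ctss -0.04 and -0.03, in the same order. None of these genes differed between the isomers by more than 0.14 on the log2 scale. H2-T24 had the largest isorhamnetin difference of these genes, at -0.65 ± 0.12 (adjusted p = 0.0995, limma), and was named for this after its values were seen. It passed when only probes above background on every array were kept (adjusted p = 0.0451), with the mean of its probes (0.0368) and with a trended, robust prior (0.0335).

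The mean of the 6 class I genes, each centred on its own mean, was 0.15 and 0.16 in control, 0.02 and 0.00 under isorhamnetin, 0.07 and 0.00 under tamarixetin, and -0.21 and -0.18 under Torin1. Among 11229 named genes above background on all 8 arrays, the patterns most like it were those of Haus8, Psme1, Zfp467, Anxa6 and Ncln, with Pearson's r of 0.986 to 0.989. The patterns most like that of Cd74 were those of Btg1, Scin, Apol9a, Laptm5 and Prkar1a, with r of 0.975 to 0.989. These correlations run over 8 arrays that fall into 4 treatment groups, and they describe the shared group levels only.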

How the data were processed

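Per the file headers and the submitters' processing notes, the single-colour scans were quantified by Agilent Feature Extraction 10.7.1.1, and 1 slide carried all 8 arrays. The deposited intensity is the processed signal, background-subtracted and not scaled between arrays per the file headers. The authors' deposited log2 values, used as an alternative, equalled log2 signal minus the array's 75th percentile minus the probe's median, within 0.01 for 99.8% of 56605 probes, with the percentile over probes. Here it was taken over spots.

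Outlier spots were dropped (323 probes left out), replicate spots averaged, and probes kept if some group had both of its arrays well above background (27562 probes). Accessions were matched to symbols through RefSeq names for GRCm38.p6, from which the promoter coordinates also come, whereas the array header names mm9. The brightest probe stood for a gene with several (4845 genes), giving 21528 genes, 8591 of them without a symbol. All arrays entered 1 fit (limma 3.58.1 in R 4.3.3, lmFit with a mean per group, eBayes, two-sided) with 4 residual degrees of freedom. P values were adjusted over all genes. The fit was tested on simulated data. The number of arrays limits the precision. P values measure the spread between the replicates, which the authors' design text calls biological.

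The 10 genes were all named. Of 67 other presentation genes and regulators, those called against control or between the isomers were named, plus Tap2, Psmb9, Nlrc5, H2-DMa, H2-Eb1, Ctss and Irf1, and the 5 genes of most like pattern. 1 regulator that is in the counts is not reported here. Members and lists were chosen with earlier results of these data known. Alternatives were normexp background correction with an offset of 50, quantile normalization, median scaling, other probe filters, the mean of a gene's probes, a trended robust prior, the authors' values, a replicate block, fits of 2 groups and leaving out each array. A block for slide could not be fitted with 1 slide.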

Additional observations from a re-analysis of the deposited data

Results flagged for a closer look

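One Ciita probe gave a processed signal of 447.84 on the second tamarixetin array, in data outside the report's comparisons, since the probe did not pass the filter on background. It entered only the fit with no filter, where Ciita was not called between tamarixetin and control (3.68, adjusted p = 0.205). The same probe gave 5.205 and 4.72 in control and 11.1 on the first tamarixetin array, and the second Ciita probe gave 9.54 on the array with the high value. On that array 356 of 56282 probes were more than 8-fold above all other arrays, and 104 spots were marked as non-uniform, against 8 and 9 on the control arrays. The cause was not tested.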

How the results depend on the processing

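No pair of groups shared deviations by replicate number (correlations of -0.13 to 0.08), so the numbers were not taken to pair the samples. With a replicate block, B2m (adjusted p = 0.0596) and Tapbp (0.0512) lost their Torin1 calls, and 4 genes were called in place of 6. Of 432 recomputed counts, 405 stayed within 1.5 times. Of 1744 recomputed differences, 1576 kept direction and side of the threshold, 97 lost a call, 22 gained one and 49 changed sign. Those for the other presentation genes were added after seeing the data. A difference cannot change with the trended prior, the replicate block or a fit of the 2 groups compared. Nor can it change when an array of an uninvolved group is left out, and in these fits only the call can. Several of the counts were 0 in the main fit and stayed 0. The shares that stayed the same are therefore not a measure of stability. The lone array left in a group was assumed to vary like the others. The causes were not tested.

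Of the 10 genes, with quantile normalization 3 were called lower with Torin1 and 1 higher with isorhamnetin than with Torin1, and the mean of a gene's probes also gave 1 for the latter. Requiring all 8 arrays above background, or a trended robust prior, gave 1 lower with isorhamnetin, Cd74. With no filter, H2-Aa, at background on every array, was called between tamarixetin and control (0.87, adjusted p = 0.0303) and between the isomers (-1.33, adjusted p = 0.00426) (1 gene each). No filter also gave 1 lower with isorhamnetin than with Torin1, again H2-Aa (-0.94, adjusted p = 0.0146, limma). It gave 1 higher with tamarixetin than with Torin1, Psmb8. This setting called 12583 of all 45380 genes between tamarixetin and control, against 16 of 21528 in the main fit. Between the isomers it called 14019, against 173, and between isorhamnetin and Torin1 20013, against 8897. Leaving out each array gave 4 to 6 lower with Torin1, 0 to 1 higher with tamarixetin, 0 to 1 lower between the isomers, and 1 to 2 higher with isorhamnetin than with Torin1. For tamarixetin against Torin1 it gave 2 to 5 higher and 0 to 1 lower.

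Of the other presentation genes, 7 were higher with Torin1 under median scaling and under no filter. With no filter they were 2 higher with tamarixetin, 2 lower between the isomers and 11 higher with tamarixetin than with Torin1. That setting called 12583, 14019 and 5684 of all 45380 genes in these comparisons, in either direction. The stricter filter, the mean of probes and the trended prior each gave 1 lower with isorhamnetin, H2-T24. Leaving out each array gave 7 to 13 higher and 14 to 21 lower with Torin1, and 11 to 16 higher with tamarixetin than with Torin1.

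Signs changed as follows, mostly for differences near 0. With normexp, H2-K1 (0.015), Ctss (0.046) and Nlrc5 (0.043) changed for tamarixetin against control, Psmb9 (0.00014) for isorhamnetin against control, H2-D1 (-0.0087) and Tap1 (0.033) between the isomers, and H2-D1 (0.020) and Tapbp (0.025) for tamarixetin against Torin1. With quantile normalization, H2-K1 (0.010) and Ctss (0.025) changed for tamarixetin and Ctss (0.037) for isorhamnetin against control, and H2-D1 (0.019) and H2-Ab1 (-0.0077) for Torin1 against control. It also gave H2-D1 at -0.13 and Tapbp at -0.047 for isorhamnetin against Torin1. With median scaling, H2-Ab1 (-0.044) and Ifngr2 (-0.027) changed for Torin1 against control, H2-K1 (0.023) and Tap1 (0.046) between the isomers, and H2-D1 (0.12) and Tapbp (0.13) for tamarixetin against Torin1. The mean of probes changed H2-K1 (0.014) between the isomers, and Tapbp (0.059) and H2-Ab1 (-0.046) for tamarixetin against Torin1. The authors' values changed Tap1 (0.0076) between the isomers, and H2-D1 (0.011) and Tapbp (0.023) for tamarixetin against Torin1.

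When each array was left out, these ranges crossed 0. Against control under tamarixetin, H2-K1 ran from -0.077 to 0.057, H2-Ab1 from -0.32 to 1.31, Ctss from -0.069 to 0.0015 and Nlrc5 from -0.15 to 0.10. Against control under isorhamnetin, H2-Eb1 ran from -0.10 to 0.0020 and Tap2 from -0.21 to 0.0086. Between the isomers, H2-K1 ran from -0.10 to 0.031, H2-D1 from -0.035 to 0.085, Tap1 from -0.079 to 0.055, Psmb8 from -0.15 to 0.020 and H2-Ab1 from -1.44 to 0.19. For isorhamnetin against Torin1, H2-D1 ran from -0.038 to 0.062 and B2m from -0.0020 to 0.11. For tamarixetin against Torin1, H2-D1 ran from -0.074 to 0.047, Tapbp from -0.016 to 0.012, and H2-Ab1 from -0.51 (adjusted p = 0.0307, without the first tamarixetin array) to 1.12 (adjusted p = 0.00399, without the second).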
